A study of Mus musculus with 8 samples.

Results

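Rab GTPases are the small GTP-binding proteins that mark membranes and direct vesicles between them. The genes described here were those whose symbol is Rab followed by a number and an optional letter, 59 of the 24791 genes in the deposited table, and their regulators and interactors, which carry Rab in longer symbols, were left out. Transcript levels were measured in 8 libraries of C57BL/6 mouse embryos, 2 in each of 4 groups named CX45, CX22, 8C and 2C. The last 2 names were taken to mean embryos at the 8-cell and the 2-cell stage. For CX45 and CX22 the labels gave no full name, and they gave no treatment, dose, time or genotype for any group and named no control, so the 4 comparisons below are between names and their purpose is not stated. The series title concerns transcription by RNA polymerase I and the architecture of chromatin in embryos. Embryo numbers per library were not given, and nothing said that the 2 libraries of a group came from separate embryos, so p-values measure the spread between libraries, which may be technical.

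A Rab protein switches between a GDP-bound form held in the cytosol and a GTP-bound form on a membrane. Guanine nucleotide exchange factors (GEFs) switch it on, GTPase-activating proteins (GAPs) switch it off, and effectors bind the active form to move, tether or fuse vesicles. Attachment to membranes needs lipid groups that are added by Rab geranylgeranyl transferase with the help of an escort protein. Each Rab works on its own part of the route: from the endoplasmic reticulum (ER) through the Golgi, through early and recycling endosomes, to late endosomes and lysosomes, or to secretory vesicles and the cell surface. In mouse oocytes, Rab3a and Rab27a are known for the release of cortical granules, and Rab11a marks vesicles that organise the actin network. During early cleavage the embryo loses transcripts stored in the egg and replaces them with its own.

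The libraries were made by Smart-seq, a method that amplifies whole cDNA when RNA is scarce, and values were in FPKM, fragments per kilobase of transcript and 1e6 mapped fragments, so that levels of different genes are per length. The steps between low values implied depths of 9.77 to 20.19 M fragments per library (M, 1e6), so that a 2 kb transcript with 3 fragments would be listed at 0.0743 to 0.154 FPKM, for counting error only. The 4 oocyte markers (Zp3, Oosp1, Nlrp5 and Bmp15) summed to between 124 and 140 FPKM in CX45, 1847 and 2426 in CX22, 20.3 and 26.3 in 8C, and 2456 and 2472 in 2C. The 4 cleavage to morula markers (Nanog, Pou5f1, Dppa2 and Tead4) ran the other way in sum. They totalled 287 to 482 FPKM in CX45, 24.997 to 25.9 in CX22, 683 to 889.8 in 8C and 15.04 to 16.3 in 2C. Dppa2 made up most of this sum, at 266 and 458 FPKM in CX45. Pou5f1 was at 0 and 2.16 FPKM in CX45 and 0 and 2.32 FPKM in CX22. Among the oocyte markers Zp3 went against the sum, at 54.3 and 29.5 FPKM in CX45 and 14.7 and 15.5 FPKM in 2C. The 4 markers of 2-cell embryos (Zscan4d, Zfp352, Usp17lc and Tcstv3) reached 45.7 and 465 FPKM in the CX45 libraries, 405 to 505 in CX22, 2.11 to 5.94 in 8C and 340.3 to 354 in 2C, so the CX45 pair was split. CX22 libraries differed most among themselves, with 333 genes above 10 FPKM in one and at 0 in the other, against 46 in CX45, 15 in 8C and 7 in 2C. Over genes, the median chi-square of the difference between the 2C libraries was 1.32 times that of sampling alone, against 39.4 to 139.9 times in the other groups, so the 2C pair entered the fit as its mean, 1 sample, and its values carry no SD. Cumulus cell markers summed to at most 8.24 FPKM in any library, with 4 of 10 at 0 everywhere, and sperm markers to at most 42.9 FPKM, in CX22, with 2 of 7 at 0 everywhere. Blood markers summed to 301 to 367 FPKM in CX45, against at most 109 FPKM in the other groups. This sum was mainly 1 gene, Hba-a1, which stood at 286 and 347 FPKM in CX45. The other globin listed, Hbb-bs, was at 0 in every library, and Alas2 and Ptprc were at most 0.0938 and 0.0701 FPKM. The part of these differences in the results below was not tested. A level in whole embryos does not tell fewer cells of a kind from less RNA per cell.

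The Rab genes together made up 0.147% to 0.419% of the summed FPKM of a library. Their sum was 1025 and 1045 FPKM in CX45, 1529 and 2016 FPKM in CX22, 1019 and 1091 FPKM in 8C, and 1783 and 1755 FPKM in 2C. A few genes carried most of it, since the 5 highest in a library held between 58.5% and 69.6% of the Rab sum. CX45 and 8C shared their leading 5, which were Rab5a, Rab7, Rab20, Rab11a and Rab1a. In 2C the 5 highest were Rab7, Rab14, Rab11a, Rab21 and Rab2a, and in CX22 Rab7, Rab14, Rab2a and Rab11a led both libraries. Rab5a alone held 24.3% and 19.6% of the Rab sum in CX45, 1.65% and 1.16% in CX22, 21.4% and 18.7% in 8C, and 1.04% and 1.10% in 2C. Of the 59 genes, 18 averaged at least 10 FPKM in CX45, 22 in CX22, 15 in 8C and 22 in 2C.

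**Figure D1:**
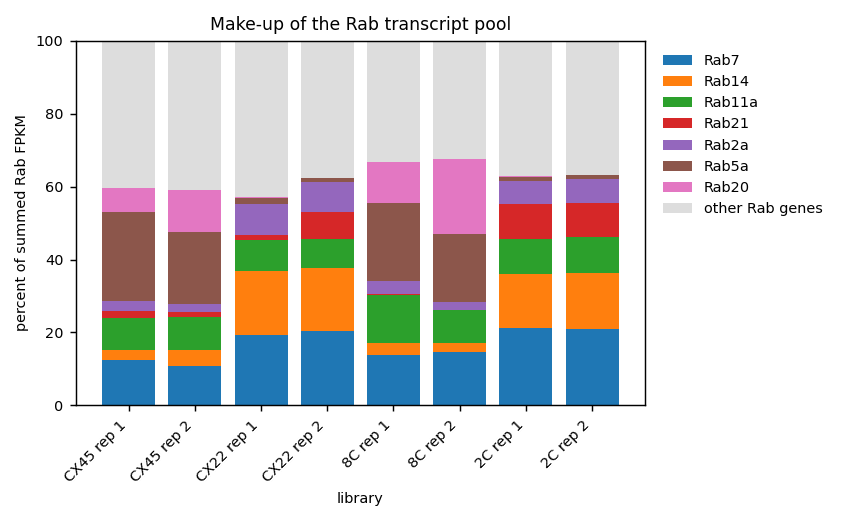
Stacked bars give the percent of the summed Rab FPKM (vertical axis) held by 7 Rab genes and by all others in each of the 8 libraries (horizontal axis, CX45, CX22, 8C and 2C from the left). Rab5a and Rab20 fill a large part of the CX45 and 8C bars, and Rab7, Rab14 and Rab21 more of the 2C bars.

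Of the 59 genes, 45 passed the filter on low values, at least 1 FPKM in at least 2 of the 8 libraries, and were tested among 11853 genes. Of the 14 that were not tested, Rab17, Rab27b, Rab36 and Rab3c were listed at 0 in all 8 libraries. The other 10 were Rab15, Rab25, Rab26, Rab33a, Rab37, Rab39b, Rab44, Rab6b, Rab7b and Rab9b. The highest value among them was 10.2 FPKM, for Rab33a in CX22 replicate 1, with Rab33a listed at 0 in CX22 replicate 2. A gene was called where the limma adjusted p over all tested genes was under 0.05 and its log2 fold change was 1 or more in either direction, on the log2(FPKM + 1) scale, which understates the change of low genes.

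**Figure D2:**
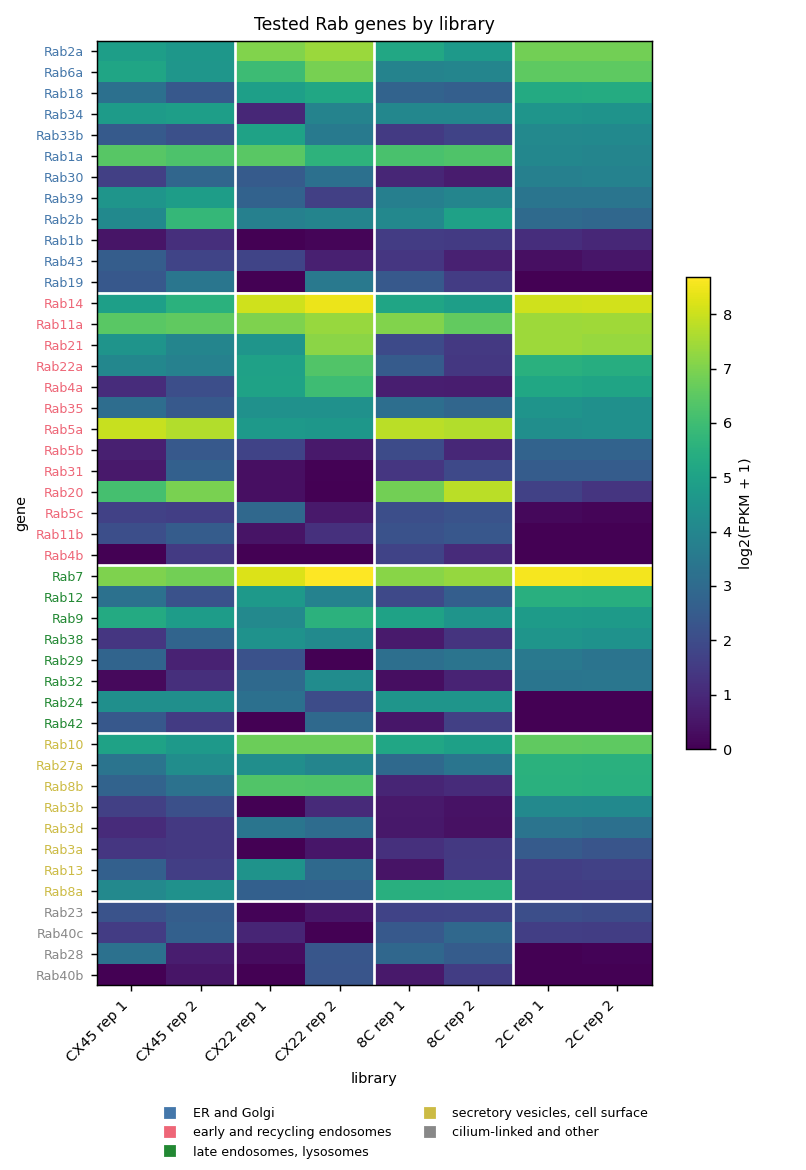
Each row is 1 of the 45 tested Rab genes, grouped by route and ordered by their mean in 2C, each column is a library, and colour gives log2(FPKM + 1). The 8C and CX45 columns are bright at Rab5a and Rab20, and the 2C and CX22 columns at Rab14, Rab8b and Rab4a.

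The comparison of 8C with 2C embryos asked how Rab transcripts differ between the stages as the names were read. Rab20, Rab24, Rab8a, Rab5a, Rab11b and Rab1a rose in 8C, and 18 Rab genes fell, Rab21, Rab8b and Rab4a by the most. In all, 24 of 45 tested Rab genes were called (53.3%), beside 37.1% of all genes tested. The 6 that rose stood beside 16.4% of all genes, and the 18 that fell beside 20.7%. The median log2 fold change was -0.68 over the Rab genes and -0.04 over all genes tested. The 24 calls rested on both 8C libraries. Without 8C replicate 1, or without 8C replicate 2, only Rab20, Rab5a, Rab8a, Rab8b and Rab14 were called, 5 in each case, with the lone library assumed to vary like the other groups. Over all genes tested, calls dropped alike, to 1484 and 1416 of 11853 in these fits, against 4397 with both libraries.

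**Figure D3:**
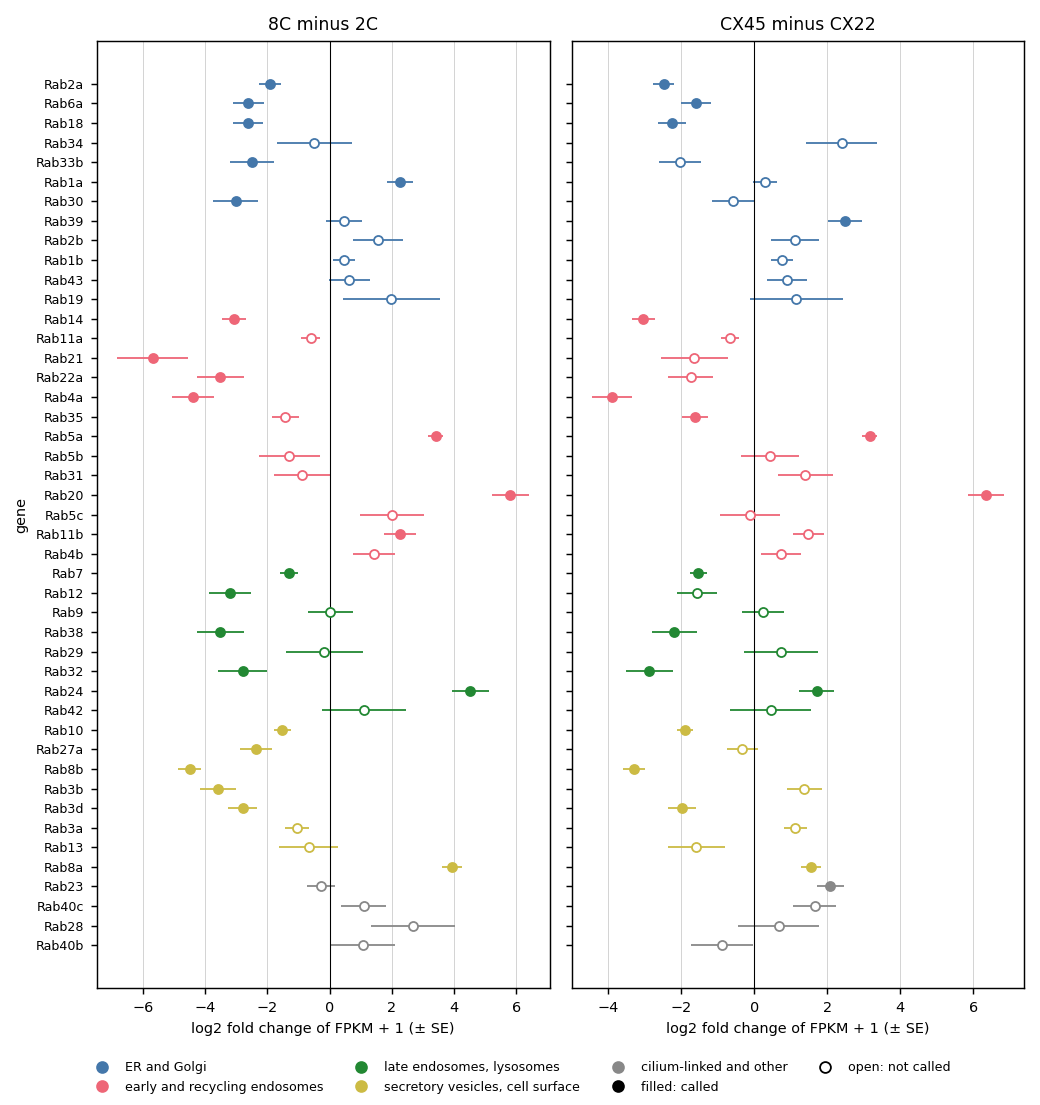
Points give the log2 fold change of FPKM + 1 (horizontal axis, bars ± SE) of the 45 tested Rab genes (vertical axis) in 8C minus 2C (left panel) and CX45 minus CX22 (right panel), filled where called. Rab20, Rab5a, Rab24 and Rab8a lie to the right of 0 and filled in both panels, and Rab4a, Rab8b and Rab14 to the left and filled in both.

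Rab20, which sits on endosomes and maturing phagosomes (mm9 chr8:11453977-11478499), showed the largest increase among the called Rab genes on the log2(FPKM + 1) scale. Its level was 114 and 222 FPKM in 8C, against 2.19 and 1.51 FPKM in 2C, and the ratio of the means was 90.9. Both 8C libraries were far above both 2C libraries, and the log2 fold change was 5.81 (SE 0.60, adjusted p = 0.00412). Rab5a, the main Rab of early endosome fusion (chr17:53618559-53647003), stood at 218 and 204 FPKM in 8C, against 18.6 and 19.4 FPKM in 2C. That was 11.1 times higher in 8C, with a log2 fold change of 3.41 (SE 0.25, adjusted p = 0.00229), and Rab5a was the highest Rab gene of 8C by its mean and the 18th of 2C. Rab8a, which carries vesicles to the cell surface and the cilium (chr8:74685099-74705265), had 43.1 and 45.3 FPKM in 8C, against 1.90 and 2.01 FPKM in 2C. The 8C mean was 22.6 times that of 2C (log2 fold change 3.93, SE 0.33, adjusted p = 0.00288). Rab24, an unusual Rab linked to autophagy (chr13:55420584-55423341), was listed at 22.0 and 22.1 FPKM in 8C and at 0 in both 2C libraries (adjusted p = 0.00694). With 0.1 in place of 1 added to FPKM, the log2 fold change was 7.79 for Rab24 and 6.35 for Rab20, so their order depends on that choice.

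The stretch before the start site is shown for the 3 Rab genes with the smallest adjusted p among those that rose (Rab5a, Rab8a and Rab20) and for Rab8b and Rab21, which fell by large amounts, since close relatives such as Rab8a and Rab8b moved in opposite directions. The sequences are from RefSeq on GRCm38.p6, a later build than the mm9 of the expression table, and give the 250 bases that end just before the annotated start. Capitals mark matches, on either strand, to the letters of 5 short motifs. These were the CCAAT box, the GC box spelled GGGCGG, the TATA box spelled TATAAA, the E-box spelled CACGTG and the TEAD motif spelled GGAATG. The windows are chr8:11478641-11478890 on the minus strand (Rab20), chr17:53478984-53479233 on the plus strand (Rab5a), chr8:72160950-72161199 on the plus strand (Rab8a), chr9:66919706-66919955 on the minus strand (Rab8b) and chr10:115315592-115315841 on the minus strand (Rab21).
Rab20: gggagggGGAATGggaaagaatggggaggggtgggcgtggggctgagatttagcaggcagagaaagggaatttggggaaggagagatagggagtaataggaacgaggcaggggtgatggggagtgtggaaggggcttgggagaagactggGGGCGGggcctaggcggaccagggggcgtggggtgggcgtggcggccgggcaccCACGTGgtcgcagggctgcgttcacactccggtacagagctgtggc
Rab5a: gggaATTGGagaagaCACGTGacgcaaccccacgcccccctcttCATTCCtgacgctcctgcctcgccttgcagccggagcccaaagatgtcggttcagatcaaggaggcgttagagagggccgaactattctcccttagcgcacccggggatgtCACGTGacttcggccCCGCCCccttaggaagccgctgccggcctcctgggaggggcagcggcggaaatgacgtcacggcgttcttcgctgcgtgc
Rab8a: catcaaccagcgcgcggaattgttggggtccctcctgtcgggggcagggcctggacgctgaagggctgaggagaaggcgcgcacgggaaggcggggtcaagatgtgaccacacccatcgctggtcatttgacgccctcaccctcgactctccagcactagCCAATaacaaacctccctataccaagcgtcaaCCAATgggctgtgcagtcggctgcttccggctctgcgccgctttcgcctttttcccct
Rab8b: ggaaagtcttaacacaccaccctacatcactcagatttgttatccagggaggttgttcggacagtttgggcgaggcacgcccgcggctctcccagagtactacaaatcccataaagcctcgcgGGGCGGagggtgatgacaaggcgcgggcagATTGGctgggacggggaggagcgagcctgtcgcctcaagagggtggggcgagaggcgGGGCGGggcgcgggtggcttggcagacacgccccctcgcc
Rab21: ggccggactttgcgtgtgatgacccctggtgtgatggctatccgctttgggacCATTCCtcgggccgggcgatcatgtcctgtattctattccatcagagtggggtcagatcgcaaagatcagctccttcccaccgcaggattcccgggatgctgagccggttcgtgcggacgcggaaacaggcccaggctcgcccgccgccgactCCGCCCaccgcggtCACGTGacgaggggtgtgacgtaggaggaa
Rab20, Rab5a and Rab21 each held the E-box, the GC box and the TEAD motif, although Rab20 and Rab5a rose in 8C and Rab21 fell. Rab8a held the CCAAT box 2 times and none of the others, while Rab8b held the CCAAT box 1 time and the GC box 2 times. RefSeq windows were at hand for 48 of the 59 Rab genes. The GC box was in 33 of these 48 windows (68.75%) and in 32.94% of 27025 windows of all genes, and the CCAAT box was in 22 (45.83%) and 34.46%. The TATA box was in 4 Rab windows (8.333%) against 12.97% of all, the E-box in 4 (8.333%) against 6.046%, and the TEAD motif in 6 (12.5%) against 12.63%. The median window held 16 CpG in Rab genes and 6 in all genes. These are letter matches in short windows and were not tested against the changes in level.

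Among the Rab genes of the ER and Golgi, 1 of 12 tested rose in 8C and 5 fell (50% called). This and the route counts below stand beside 16.4% higher, 20.7% lower and 37.1% called in either direction over all genes tested. The routes are short lists, and no test compared them with other genes. Rab1a, which acts between the ER and the Golgi, was the one that rose, with 72.0 and 77.7 FPKM in 8C against 15.1 and 14.5 FPKM in 2C (log2 fold change 2.26, SE 0.41, adjusted p = 0.0161). Its close copy Rab1b stayed low, at 1.92 and 1.80 FPKM in 8C and 1.18 and 0.976 FPKM in 2C, and was not called. Rab2a, a Golgi Rab, fell to 36.1 and 24.6 FPKM in 8C, against 115 and 115 FPKM in 2C (log2 fold change -1.91, adjusted p = 0.0168). Its copy Rab2b was not called, at 15.8 and 30.1 FPKM in 8C and 7.09 and 6.44 FPKM in 2C, so Rab2b made up 30.4% and 55.0% of the Rab2 pair in 8C against 5.82% and 5.32% in 2C. Rab6a, which drives transport within and back from the Golgi, fell to 13.9 and 14.5 FPKM in 8C, against 91.9 and 92.4 FPKM in 2C (log2 fold change -2.61, adjusted p = 0.0173), a call that was lost with the highest entry per gene (adjusted p = 0.215). Rab18, known for the ER and lipid droplets, fell by 2.62 on the log2 scale, with 5.86 and 5.21 FPKM in 8C and 39.1 and 39.3 FPKM in 2C. The other 2 that fell were Rab30, a Golgi Rab (log2 fold change -3.02), and Rab33b, known for the Golgi and autophagosomes (log2 fold change -2.50). Rab34, known for cilium formation and lysosome position, was not called, with 15.1 and 15.2 FPKM in 8C and 22.3 and 21.0 FPKM in 2C. Rab39 too was not called, at 12.4 and 14.3 FPKM in 8C and 9.49 and 9.35 FPKM in 2C.

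Early and recycling endosome Rab genes went both ways, with 3 of 13 tested higher in 8C and 4 lower (53.8% called). Beside Rab20 and Rab5a, Rab11b, a recycling endosome Rab, rose and was listed at 3.51 and 4.14 FPKM in 8C and at 0 in both 2C libraries (adjusted p = 0.0297). Rab11a, the far more abundant recycling endosome Rab, was not called, with 132 and 96.1 FPKM in 8C and 171 and 173 FPKM in 2C. Rab21, an early endosome Rab that carries integrins (chr10:114726918-114752647), had 2.85 and 1.73 FPKM in 8C, against 171 and 162 FPKM in 2C. Its mean was 72.7 times higher in 2C, and the log2 fold change of -5.69 had the widest error among the calls (SE 1.14, adjusted p = 0.0204). Rab4a, which returns cargo quickly from endosomes to the surface (chr8:126329896-126359191), had 0.674 and 0.628 FPKM in 8C, against 35.1 and 32.4 FPKM in 2C (log2 fold change -4.40, SE 0.67, adjusted p = 0.0105). Rab14, which acts between the Golgi and endosomes (chr2:35035725-35056640), fell to 33.7 and 28.2 FPKM in 8C, against 263 and 269 FPKM in 2C (log2 fold change -3.07, SE 0.38, adjusted p = 0.00623). Rab22a, an endosomal sorting Rab, fell to 4.63 and 1.68 FPKM in 8C, against 45.02 and 42.1 FPKM in 2C. Rab35, of fast recycling and cytokinesis, stood at 7.87 and 6.36 FPKM in 8C and 21.6 and 19.7 FPKM in 2C and missed the threshold (adjusted p = 0.0607). The other Rab5 genes were low: Rab5b had 2.93 and 0.962 FPKM in 8C and 5.76 and 5.83 FPKM in 2C, and Rab5c had 3.21 and 3.70 FPKM in 8C and 0.130 and 0.0810 FPKM in 2C, and neither was called.

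For the late endosome and lysosome, 1 of 8 tested Rab genes rose, Rab24, and 4 fell (62.5% called). Rab7, the main Rab of fusion with lysosomes, fell to 142 and 159.7 FPKM in 8C, against 379 and 369.8 FPKM in 2C (log2 fold change -1.31, SE 0.29, adjusted p = 0.0272). By the summed entries this was a small decrease among the 18, but it was -2.52 when only the highest entry of the gene was used and -2.03 after quantile normalization. Rab7 was still among the 3 highest Rab genes of 8C. Rab12, known for the breakdown of the transferrin receptor, had 2.81 and 5.05 FPKM in 8C, against 43.5 and 42.7 FPKM in 2C (log2 fold change -3.20). Rab38 and Rab32, a related pair that acts in lysosome-related organelles such as melanosomes, fell, with log2 fold changes of -3.52 and -2.79. Rab38 had 0.532 and 1.47 FPKM in 8C and 21.9 and 20.5 FPKM in 2C, and Rab32 had 0.245 and 0.840 FPKM in 8C and 9.36 and 9.59 FPKM in 2C. Rab9, which returns cargo from late endosomes to the Golgi, overlapped between the groups, with 31.5 and 21.6 FPKM in 8C and 26.0 and 25.3 FPKM in 2C, and was not called.

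Of the 8 tested Rab genes of secretory vesicles and the cell surface, 1 rose, Rab8a, and 5 fell (75% called). Rab8b, the close relative of Rab8a (chr9:66691471-66767512), fell to 0.848 and 1.11 FPKM in 8C, against 44.2 and 43.2 FPKM in 2C (log2 fold change -4.50, SE 0.38, adjusted p = 0.00284). The pair thus changed places: Rab8a was 98.1% and 97.6% of the summed Rab8a and Rab8b FPKM in 8C, against 4.13% and 4.45% in 2C. Rab3b and Rab3d, Rab genes of regulated secretion, fell, with log2 fold changes of -3.59 and -2.79. Rab3b had 0.523 and 0.356 FPKM in 8C, against 16.2 and 16.5 FPKM in 2C, and Rab3d had 0.468 and 0.322 FPKM in 8C, against 9.14 and 8.18 FPKM in 2C. Rab3a was not called, with 1.32 and 1.70 FPKM in 8C and 4.58 and 3.86 FPKM in 2C (adjusted p = 0.0941). Rab27a, which docks secretory granules, fell to 6.85 and 9.41 FPKM in 8C, against 45.4 and 45.2 FPKM in 2C (log2 fold change -2.36, adjusted p = 0.0261). With the highest entry per gene its change was -1.35 and not called (adjusted p = 0.602). Rab10, which carries vesicles to the basolateral surface, fell to 33.9 and 29.9 FPKM in 8C, against 94.9 and 92.0 FPKM in 2C (log2 fold change -1.52, adjusted p = 0.0153). Rab13, of tight junctions, was low in both, at 0.361 and 1.81 FPKM in 8C and 2.02 and 2.23 FPKM in 2C. None of the 4 tested genes linked to the cilium or to other roles was called, and Rab23, which restrains Hedgehog signalling, had 2.33 and 2.44 FPKM in 8C and 3.28 and 2.92 FPKM in 2C.

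**Figure D4:**
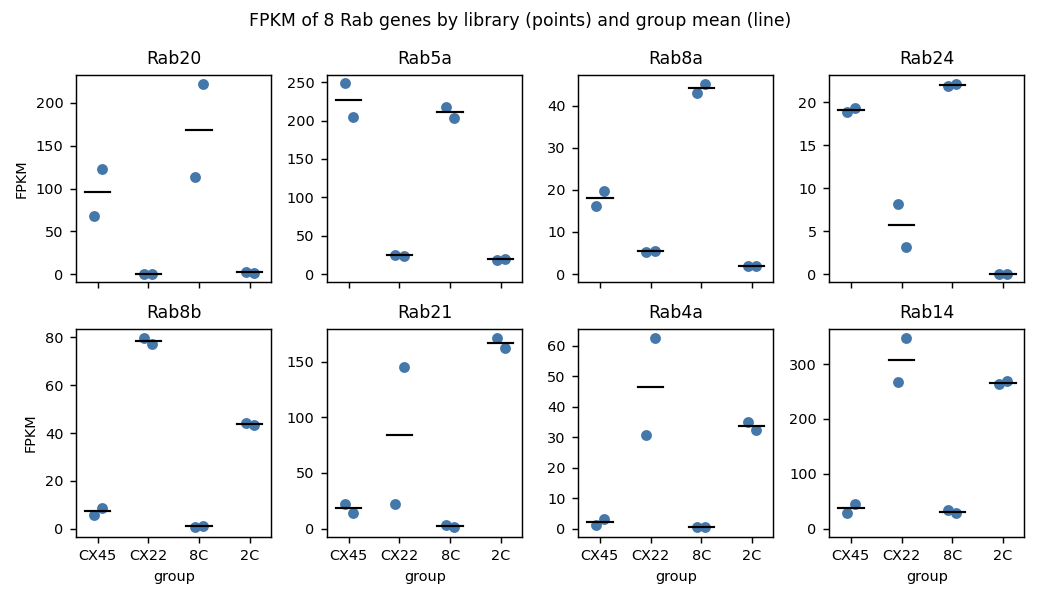
FPKM (vertical axis, from 0, own scale per panel) of 8 Rab genes in the groups CX45, CX22, 8C and 2C (horizontal axis), with points for libraries and a line for the group mean. Rab20, Rab5a, Rab8a and Rab24 (top) are highest in 8C or CX45, and Rab8b, Rab21, Rab4a and Rab14 (bottom) in 2C or CX22.

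CX22 embryos were compared with 2C embryos. No Rab gene passed the test: 0 of 45 tested were called by limma, beside 3.88% of all genes tested (0.599% higher and 3.28% lower), and the median log2 fold change was 0.00 over the Rab genes and -0.07 over all. At an unadjusted p under 0.05, 3 Rab genes were higher in CX22 (Rab1a, Rab24 and Rab8a) and 5 lower (Rab3b, Rab3a, Rab23, Rab27a and Rab1b). Rab1a had 88.0 and 48.5 FPKM in CX22 and 15.1 and 14.5 FPKM in 2C (log2 fold change 2.07, SE 0.41, adjusted p = 0.0831). Both CX22 libraries were above both 2C libraries. Rab3b was listed at 0 and 1.07 FPKM in CX22, against 16.2 and 16.5 FPKM in 2C, and came nearest to the threshold (log2 fold change -3.59, SE 0.59, adjusted p = 0.0526). Rab3a, a Rab of regulated secretion, was listed at 0 and 0.457 FPKM in CX22, against 4.58 and 3.86 FPKM in 2C (adjusted p = 0.0700). These calls depended on how the 2C libraries were counted. With all 8 libraries separate, Rab1a, Rab24 and Rab8a were called higher and Rab3b, Rab3a and Rab23 lower, 6 in all, with adjusted p of 0.00809 for Rab1a and 0.00426 for Rab3b. Without CX22 replicate 2, Rab1a, Rab24 and Rab5c were called higher and Rab34, Rab3a and Rab3b lower, beside 1110 of all genes. Without CX22 replicate 1 only Rab1a was called, beside 660 of all genes, against 460 with both libraries.

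Genes that fell in 8C did not all stand alike in CX22 against 2C. Rab3b, above, just missed the threshold, but it was called lower in CX22 with 8 separate libraries. It was also called with the highest entry per gene, where its own values do not change because Rab3b has 1 entry. Rab27a had 18.7 and 14.6 FPKM in CX22, against 45.4 and 45.2 FPKM in 2C (log2 fold change -1.40, adjusted p = 0.293), and Rab12 had 24.4 and 13.6 FPKM in CX22, against 43.5 and 42.7 FPKM in 2C (adjusted p = 0.527). For these 3 genes the groups did not overlap, nor did they for Rab2a, Rab10, Rab21, Rab8b, Rab20, Rab5a and Rab24 below. How often this was so over all genes was not counted, so it does not set any of these genes apart. Rab14 had 267 and 348 FPKM in CX22 and 263 and 269 FPKM in 2C, so the groups overlapped. Rab7 had 297 and 412 FPKM in CX22 and 379 and 369.8 FPKM in 2C, Rab2a 131 and 166 FPKM in CX22 and 115 and 115 FPKM in 2C, and Rab10 105 and 106 FPKM in CX22 and 94.9 and 92.0 FPKM in 2C. Rab21 was split within CX22, at 22.2 and 145 FPKM, against 171 and 162 FPKM in 2C. Rab8b had 79.6 and 77.4 FPKM in CX22, against 44.2 and 43.2 FPKM in 2C, a ratio of 1.80, and was not called. Of the genes that rose in 8C, Rab20 had 0.283 and 0 FPKM in CX22 and 2.19 and 1.51 FPKM in 2C, and Rab5a 25.3 and 23.3 FPKM in CX22 and 18.6 and 19.4 FPKM in 2C, and neither was called. Rab24 had 8.22 and 3.10 FPKM in CX22 and was listed at 0 in 2C. CX22 and 8C were each set against the same 2C libraries, so these values are given side by side and their likeness was not measured.

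CX45 embryos were compared with 8C embryos. Here also 0 of 45 tested Rab genes were called by limma, beside 0.658% of all genes tested (0.456% higher and 0.202% lower), and the median log2 fold change was 0.12 over the Rab genes and 0.31 over all genes. At an unadjusted p under 0.05, Rab8b, Rab21, Rab22a and Rab3b were higher in CX45 and Rab8a was lower. Rab8b had 5.88 and 8.64 FPKM in CX45, against 0.848 and 1.11 FPKM in 8C (log2 fold change 2.04, SE 0.31, adjusted p = 0.0682). Rab8a had 16.1 and 19.8 FPKM in CX45, against 43.1 and 45.3 FPKM in 8C (log2 fold change -1.26, SE 0.27, adjusted p = 0.108). The libraries of the groups did not overlap for either gene, and Rab8a was 73.2% and 69.7% of the Rab8 pair in CX45, against 98.1% and 97.6% in 8C. Both genes were called when the 8 libraries entered separately (adjusted p = 0.0121 for Rab8b and 0.0338 for Rab8a).

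Rab21, at 21.7 and 14.4 FPKM in CX45 and 2.85 and 1.73 FPKM in 8C, and Rab22a, at 15.1 and 13.2 FPKM in CX45 and 4.63 and 1.68 FPKM in 8C, also had groups that did not overlap. They stood beside oocyte markers at 124 to 140 FPKM in CX45 and 20.3 to 26.3 FPKM in 8C. The markers of 2-cell embryos were at 45.7 and 465 FPKM in CX45 and 2.11 to 5.94 FPKM in 8C. No marker of either list was called here, and a link to the Rab genes was not tested. None of the 5 leading Rab genes of these groups was called. Rab5a had 249 and 204 FPKM in CX45 and 218 and 204 FPKM in 8C (226.5 ± 31.3 and 211 ± 10.4 FPKM, SD, n = 2 each). Rab20 had 68.4 and 122 FPKM in CX45 and 114 and 222 FPKM in 8C, with overlapping libraries. Rab7 had 128 and 114 FPKM in CX45 and 142 and 159.7 FPKM in 8C, Rab11a 87.7 and 94.7 FPKM in CX45 and 132 and 96.1 FPKM in 8C, and Rab24 18.9 and 19.3 FPKM in CX45 and 22.0 and 22.1 FPKM in 8C. The groups did not overlap for Rab7, Rab11a and Rab24 either. How often groups failed to overlap over all genes was not counted, so it does not set any of these genes apart.

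CX45 embryos were then compared with CX22 embryos. Rab20, Rab5a, Rab39, Rab23, Rab24 and Rab8a rose in CX45, and Rab4a, Rab8b, Rab14, Rab32, Rab2a, Rab18, Rab38, Rab3d, Rab10, Rab35, Rab6a and Rab7 fell. These 18 of 45 were 40.0%, beside 36.6% of all genes tested, with 6 higher beside 23.1% of all and 12 lower beside 13.5%. The share called in either direction was thus near that of all genes. Among Rab genes most calls were lower and among all genes most were higher, a difference that was not tested. The median log2 fold change was 0.24 over the Rab genes and 0.47 over all genes. Quantile normalization, which moved the median of all genes to 0.06, called 4 Rab genes higher and 15 lower. Calls fell to 9 without 8C replicate 1, without 8C replicate 2 or without CX45 replicate 2, while calls over all genes dropped to 2540, 2534 and 2539, against 4335. In these fits Rab20, Rab5a, Rab4a, Rab8b, Rab14, Rab2a, Rab18 and Rab10 were called each time.

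Rab20 showed the largest change, with 68.4 and 122 FPKM in CX45, against 0.283 and 0 FPKM in CX22 (log2 fold change 6.35, SE 0.49, adjusted p = 0.00387). Rab5a had 249 and 204 FPKM in CX45, against 25.3 and 23.3 FPKM in CX22 (log2 fold change 3.16, SE 0.20, adjusted p = 0.00346). Rab24, at 18.9 and 19.3 FPKM in CX45 and 8.22 and 3.10 FPKM in CX22, and Rab8a, at 16.1 and 19.8 FPKM in CX45 and 5.28 and 5.501 FPKM in CX22, rose by less, with log2 fold changes of 1.71 and 1.56. Rab39 rose to 22.0 and 27.7 FPKM in CX45, against 5.71 and 2.11 FPKM in CX22 (adjusted p = 0.0170), and Rab23 to 3.62 and 4.94 FPKM in CX45, against 0.0486 and 0.451 FPKM in CX22 (adjusted p = 0.0150). Rab4a had the largest decrease, to 1.16 and 3.24 FPKM in CX45, against 30.8 and 62.4 FPKM in CX22 (log2 fold change -3.89, SE 0.55, adjusted p = 0.00916). Rab8b fell by 3.29 on the log2 scale, with 5.88 and 8.64 FPKM in CX45 and 79.6 and 77.4 FPKM in CX22, so that Rab8a was 73.2% and 69.7% of the Rab8 pair in CX45 and 6.23% and 6.64% in CX22. Rab14 fell to 28.8 and 45.3 FPKM in CX45, against 267 and 348 FPKM in CX22 (log2 fold change -3.04, SE 0.31, adjusted p = 0.00549). Rab2a fell to 28.2 and 23.4 FPKM in CX45, against 131 and 166 FPKM in CX22 (log2 fold change -2.48, adjusted p = 0.00657). Rab10 fell to 31.0 and 24.5 FPKM in CX45, against 105 and 106 FPKM in CX22, and Rab35 to 7.59 and 4.37 FPKM in CX45, against 19.99 and 20.1 FPKM in CX22 (adjusted p = 0.00662 and 0.0253). Of the Golgi and ER genes, Rab6a fell to 33.4 and 22.7 FPKM in CX45, against 61.6 and 118 FPKM in CX22, and Rab18 to 8.26 and 4.21 FPKM in CX45, against 28.7 and 35.2 FPKM in CX22 (adjusted p = 0.0361 and 0.0139). The lysosome-related pair fell too, Rab38 to 1.61 and 5.99 FPKM in CX45, against 20.4 and 16.9 FPKM in CX22, and Rab32 to 0.177 and 1.27 FPKM in CX45, against 6.77 and 17.5 FPKM in CX22. Rab7 fell to 128 and 114 FPKM in CX45, against 297 and 412 FPKM in CX22 (log2 fold change -1.53, adjusted p = 0.0114), and Rab3d to 1.09 and 1.71 FPKM in CX45, against 9.38 and 7.34 FPKM in CX22. Rab1a, which rose in 8C over 2C, was not called here, with 84.9 and 76.0 FPKM in CX45 and 88.0 and 48.5 FPKM in CX22. Rab21 was not called either, with 21.7 and 14.4 FPKM in CX45 and CX22 libraries that lay far apart, at 22.2 and 145 FPKM.

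The CX22 libraries also lay far apart for other genes that were not called. Rab34 had 26.4 and 28.3 FPKM in CX45 and 0.966 and 13.7 FPKM in CX22, and Rab33b had 4.44 and 3.34 FPKM in CX45 and 31.4 and 11.0 FPKM in CX22 (adjusted p = 0.0501 for Rab33b). Rab13 reached its highest values in CX22, at 21.3 and 6.86 FPKM, with 5.32 and 2.09 FPKM in CX45. Rab9 overlapped between the groups, with 39.2 and 26.9 FPKM in CX45 and 15.9 and 46.6 FPKM in CX22. In CX45 the libraries were apart for Rab2b, at 16.6 and 53.7 FPKM, against 12.8 and 14.0 FPKM in CX22, and for Rab27a, at 9.13 and 18.2 FPKM, against 18.7 and 14.6 FPKM in CX22. Rab12 had 8.35 and 3.53 FPKM in CX45 and 24.4 and 13.6 FPKM in CX22, without overlap but also without a call (adjusted p = 0.0872), and Rab11a had 87.7 and 94.7 FPKM in CX45 and 129 and 162 FPKM in CX22 (adjusted p = 0.106).

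The comparisons of 8C with 2C and of CX45 with CX22 share no library, but they come from 1 fit with 1 estimate of the spread per gene, so their lists of calls are not independent. Of the Rab genes called, 15 were called in both with the same direction, which is 62.5% of the 24 in 8C against 2C and 83.3% of the 18 in CX45 against CX22, and 0 had opposite calls. Over all genes tested the shared calls, 2752 in number, were 62.6% and 63.5% of the lists, and 67 genes had opposite calls. Lower calls of CX45 against CX22 were shared more often than higher ones. Among Rab genes 11 of 12 lower calls (91.7%) and 4 of 6 higher calls (66.7%) were shared. Over all genes tested these shares were 79.5% and 54.1%. The Rab genes called in both were Rab20, Rab5a, Rab24 and Rab8a among those that rose and Rab4a, Rab8b, Rab14, Rab32, Rab2a, Rab18, Rab38, Rab3d, Rab10, Rab6a and Rab7 among those that fell. In CX45 over CX22 some of these calls were easily lost: Rab24 kept its call in 8 of 17 alternatives, Rab38 in 9, Rab6a in 10 and Rab32 in 11. Whether the changes of a gene differed between the comparisons was not tested.

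Rab7 also differed in which of its transcripts were listed. The table gave 5 Rab7 transcripts from 3 starts on chr6 (mm9), of which 2 transcripts were at 0 in every library. The transcript from the start farthest upstream, at 87995264, had 26.0 and 75.1 FPKM in CX45, 0 in both CX22 libraries, 75.3 and 116 FPKM in 8C, and 0 in both 2C libraries. The transcript from the next start, 253 bases downstream, had 85.3 and 38.5 FPKM in CX45, 297 and 356 FPKM in CX22, 66.6 and 43.6 FPKM in 8C, and 317 and 312 FPKM in 2C. The upstream start therefore held 20.3% and 66.1% of the Rab7 FPKM in CX45, none in CX22, 53.1% and 72.7% in 8C, and none in 2C. The start farthest downstream, at 87969789, was listed at 16.8 and 0 FPKM in CX45, 0 and 55.7 FPKM in CX22, 0 in both 8C libraries, and 62.7 and 57.9 FPKM in 2C. Rab6a showed a like split between a pair of transcripts of the same locus: the shorter held 37.1% and 42.7% of Rab6a in 8C and 0% in both 2C libraries. It held 100% and 38.6% in CX45, but exactly 50% in CX22 replicate 1 and 0% in CX22 replicate 2. Cufflinks divides reads among overlapping transcripts by estimate, so these shares are uncertain, and they were not tested.

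**Figure D5:**
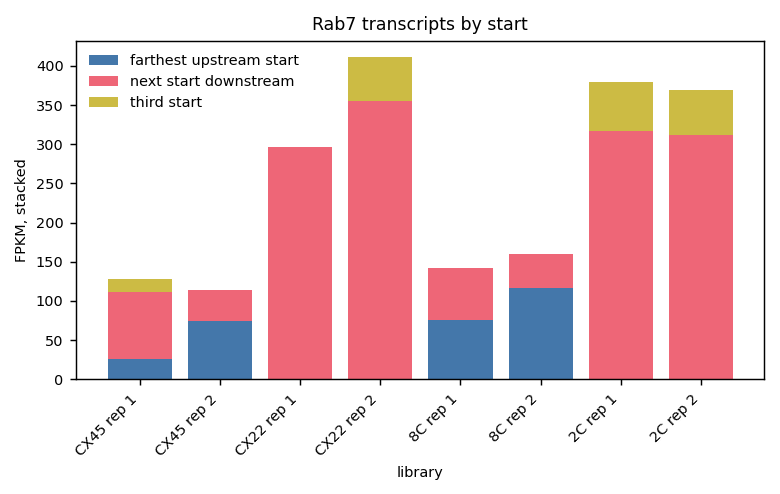
Stacked bars give FPKM (vertical axis) of the Rab7 transcripts that share a start, for each of the 8 libraries (horizontal axis). The farthest upstream start appears in the 4 CX45 and 8C libraries at 26.0 to 116 FPKM and is at 0 in the 4 CX22 and 2C libraries.

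Genes that act on Rab proteins were read as lists. Of 14 tested genes of Rab prenylation, membrane delivery and recycling, 4 rose in 8C over 2C (Chm, Rabggta, Rabggtb and Yipf1) and 1 fell (Yipf6). These were 35.7% of the list, near the 37.1% of all genes tested, with a median log2 fold change of 1.11 beside -0.04. Rabggtb, the catalytic subunit of Rab geranylgeranyl transferase, had 119 and 148 FPKM in 8C, against 17.7 and 18.9 FPKM in 2C (log2 fold change 2.79, SE 0.27, adjusted p = 0.00359). In CX45 it had 89.0 and 99.4 FPKM, against 18.5 and 17.6 FPKM in CX22 (log2 fold change 2.32, adjusted p = 0.00498). The list counted 5 higher and 0 lower in CX45 over CX22, or 35.7% called beside 36.6% of all genes, with a median of 0.84 beside 0.47. Among the 5 was Rabac1, which binds prenylated Rab proteins, with 41.9 and 55.4 FPKM in CX45 and 0.467 and 0.472 FPKM in CX22.

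The GEF, GAP and effector lists are given beside 16.4% higher and 20.7% lower over all genes tested in 8C over 2C, and no test compared them with other genes. Among 39 tested GEF genes, 4 rose and 12 fell (41.0% called), with a median log2 fold change of -0.99. Trappc4, a core subunit of the TRAPP complexes that activate Rab1, rose to 221 and 199 FPKM in 8C, against 14.0 and 15.3 FPKM in 2C (log2 fold change 3.75). Trappc2, another TRAPP subunit, fell to 5.08 and 3.82 FPKM in 8C, against 366 and 366 FPKM in 2C (log2 fold change -6.08), and Dennd6a, a GEF of Rab14, to 1.13 and 1.31 FPKM in 8C, against 69.1 and 70.0 FPKM in 2C. Of 29 GAP genes 3 rose and 6 fell (31.0% called, median -0.26), and Tbc1d15, a GAP of Rab7, had 33.5 and 30.4 FPKM in 8C, against 217 and 218 FPKM in 2C. Of 45 effector genes 3 rose and 15 fell (40.0% called, median -1.22). Eea1, the tether that binds Rab5 on early endosomes, fell to 1.34 and 2.09 FPKM in 8C, against 49.5 and 48.8 FPKM in 2C (log2 fold change -4.22, SE 0.40, adjusted p = 0.00359), while Rab5a itself rose. Rims1 and Sytl4, effectors of Rab3 and Rab27, fell, with log2 fold changes of -4.88 and -4.74. In CX45 over CX22, where 23.1% of all genes were higher and 13.5% lower with a median of 0.47, the GEF list had 5 higher and 11 lower (median -0.09). The GAP list had 5 higher and 7 lower (median 0.00) and the effector list 4 higher and 9 lower (median -0.61).

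Calls in these lists were few in the other comparisons, as they were over all genes tested. In CX22 over 2C, Trappc9 and the Rab11 effector Rab11fip4 fell and the GAP gene Sgsm1 rose. These were 1 of 39 GEF genes (2.56%), 1 of 45 effector genes (2.22%) and 1 of 29 GAP genes (3.45%). Over all genes tested 3.88% were called. Rilpl2, an effector of Rab8 and Rab10 known for its role at the cilium, was the single list gene called in CX45 over 8C, with 49.7 and 48.6 FPKM in CX45 and 6.49 and 7.16 FPKM in 8C (log2 fold change 2.68, SE 0.24, adjusted p = 0.0460). It was 1 of 45 effector genes (2.22%), beside 0.658% of all genes tested. Genes of the Arf family, another group of small GTPases that act in vesicle traffic, were set beside the Rab genes. In 8C over 2C, 3 of 23 tested Arf family genes rose and 4 fell (30.4% called, median -0.14), beside 37.1% called over all genes tested (median -0.04). Those that fell were Arf3, Arl4a, Arl6 and Trim23. Arl6 had 1.23 and 0.857 FPKM in 8C, against 56.2 and 56.3 FPKM in 2C (log2 fold change -4.81). Sar1a and Sar1b, which form the coat of vesicles that leave the ER, were 2 of the Arf family genes that rose: Sar1a had 140.5 and 139 FPKM in 8C, against 16.6 and 17.0 FPKM in 2C, and Sar1b 208 and 201 FPKM in 8C, against 20.7 and 21.6 FPKM in 2C. No test compared this family with the Rab genes.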

How the data were processed

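The authors made Smart-seq libraries from total RNA, amplified with KAPA HiFi polymerase, prepared with Nextera XT and sequenced on a BGISEQ500, per the labels. Reads were aligned with HISAT2 (listed as version 4.8.2) to mm9 and quantified with Cufflinks 2.2.1, per the submitters' processing notes. Settings, strand and the handling of reads that match several genes have no statement in the sources used here, so members with processed pseudogenes or close copies, and genes with an antisense partner, are uncertain. The deposited table holds FPKM values, 1 per RefSeq transcript and library, made by the authors without pooling.

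Of 41876 entries, 41783 matched a symbol in RefSeq (GRCm38.p6, names only) or GENCODE. FPKM were summed per gene, and the 59 Rab genes came from 94 entries. Implied depths were those at which low values became whole numbers of fragments: 65.6% to 73.1% of values checked lay within 0.05 of one, too few to recover counts. A single limma fit (version 3.58.1, R 4.3.3) covered all 4 groups, on log2(FPKM + 1) with a mean-variance trend, two-sided, with Benjamini-Hochberg adjustment over 11853 genes. With the 2C libraries averaged there were 7 samples and 3 residual degrees of freedom, and the spread of 2C was taken to equal that of the other groups. Over 5463 genes, 10.3% still differed between the 2C libraries by more than sampling error. The mean chi-square was 144.6 in 2C, against 92.5 in CX45, 73.9 in 8C and 342.7 in CX22. Counting the 2C libraries as 1 sample is therefore a choice. Of the pairs of groups, 4 were compared.

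Named Rab genes were up to 8 called per direction and comparison, all that averaged 10 FPKM or more in a group, and a fixed set of the best-known Rab genes. Other Rab genes named were chosen after their values were seen. List genes named with values were among the 4 called with the smallest p. The members, routes and lists were chosen with earlier results of these data known. Same-numbered libraries of different groups were checked for shared deviations and did not pair. Alternatives were another pseudocount, no filter, quantile normalization, rescaling, no trend, the highest entry per gene, 8 separate libraries with and without a replicate block, no fold minimum, and each library left out.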

Additional observations from a re-analysis of the deposited data

How the results depend on the processing

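Over 17 alternatives no called Rab gene changed direction. Several of them could not move a fold change, such as no filter, no trend, no fold minimum or leaving out a library of another group. With single libraries left out, the Rab genes called ranged from 5 to 26 in 8C against 2C, 0 to 6 in CX22 against 2C, 0 to 0 in CX45 against 8C and 9 to 20 in CX45 against CX22. In CX22 against 2C, 1 was called with a pseudocount of 0.1, 1 with the highest entry per gene, 6 with 8 separate libraries and 5 with a replicate block added. In CX45 against 8C, 2 were called with 8 separate libraries and 1 with the replicate block. The block gave 27 in 8C against 2C and 23 in CX45 against CX22, but same-numbered libraries shared only a number (r of their deviations -0.000474 to 0.108). Rescaling each library to the same sum moved the median of all genes in 8C against 2C to -0.38, and quantile normalization moved it in CX45 against 8C to 0.00. Over all genes, quantile normalization or no filter called 0 in CX45 against 8C, where 78 were called, no trend called 2, and 8 separate libraries called 1038. In CX22 against 2C, where 460 were called, no trend called 58 and 8 separate libraries 1611. The cause of these changes was not tested. Rab genes under about 1 FPKM rest on few fragments.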
